A study of Mus musculus with 10 samples.

Results

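Genes of the endoplasmic reticulum (ER) stress response and of the secretory pathway were followed by RNA sequencing in T cells and in type 2 conventional dendritic cells (cDC2s, the antigen-presenting cells that carry SIRP alpha, the receptor of CD47) from mouse spleen. The 34 genes were picked by symbol from the 45706 genes of the deposited table, and each symbol matched 1 gene of the GRCm38 annotation. Of the 34, 24 serve the general ER stress response or protein folding (6 regulators and their targets, 9 chaperones, 6 lectin chaperones and disulfide isomerases, and 3 genes of ER-associated degradation). Another 5 serve entry into the ER and signal peptide removal, and 5 are secretory genes abundant in plasma cells. T cells were sequenced from Cd47ΔT mice, whose name stands for loss of Cd47 from T cells, in 2 libraries, and from Cd47f/f mice, which carry floxed Cd47, in 2 libraries. The cDC2s came from mice of the same genotypes, with 3 libraries from Cd47ΔT and 3 from Cd47f/f mice. The Cre line, the age of the mice and the way cells were isolated are not stated in the sources used here. Nor is it stated whether each library is a separate mouse, so p-values reflect the spread among the libraries at hand, and that spread may be technical alone.

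Proteins bound for secretion or for membranes enter the ER through the Sec61 channel, lose their signal peptide and fold with the help of chaperones and disulfide isomerases. When unfolded protein builds up, the sensors IRE1, PERK and ATF6 switch on the unfolded protein response. It acts through the transcription factors XBP1, ATF4 and ATF6 and raises chaperones and degradation. Plasma cells, the antibody-secreting descendants of B cells, enlarge this machinery under XBP1 as part of their normal development, and they hold a set of secretory genes, among them Mzb1 and Derl3, at a high level.

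Values are TPM, transcript abundances scaled by transcript length and to the same total in every library, so levels of different genes can be set side by side. Sequencing depth cannot be read from TPM and is not known here. Cd47 itself stood at 40.4 and 51.7 TPM in Cd47ΔT T cells, against 138 and 233 TPM in Cd47f/f T cells. In cDC2s it stood at 135 to 159 TPM in Cd47ΔT and at 140 to 162 TPM in Cd47f/f libraries. The summed level of 10 T cell markers was 4733 to 5210 TPM in Cd47ΔT T cells and 5052 to 5177 TPM in Cd47f/f T cells, and 10 cDC2 markers summed to 1187 to 1259 TPM in Cd47ΔT cDC2s and 1470 to 1591 TPM in Cd47f/f cDC2s. Of the cDC2 libraries, Cd47f/f library 3 was the least like the rest, at a Pearson r across genes of 0.929 to 0.937.

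In T cells, 3 of the 5 plasma cell secretory genes, 3 general genes and 2 genes of ER entry were higher in Cd47ΔT mice. Among the tested members, Mzb1 and Derl3 had the largest differences, 6.20-fold and 12.3-fold by group means. Asns, Sdf2l1, Xbp1, Txndc5, Ssr4 and Sec61b were higher by 1.36-fold to 5.58-fold. The general genes that passed the test were Asns, Sdf2l1 and Xbp1. The other 20 tested did not, among them Hspa5, Ddit3, Atf4 and Herpud1. Hspa5, Atf4 and Herpud1 lay higher in both Cd47ΔT libraries, as did 37.0% of all genes. The log2 fold change of Hspa5 was 0.25, and 0.43 without Cd47f/f library 2. In all, 8 of 33 tested members (24.2%) passed the test as higher and 0 as lower (limma on log2(TPM + 1), adjusted p under 0.05). Over all 12453 genes tested, 8.5% passed as higher and 0.875% as lower. Of the 8, Derl3 and Asns reached 1 TPM, the limit for testing, in the Cd47ΔT libraries alone, so the limit itself fixed their direction. When only genes at 1 TPM in at least 1 library of each genotype were tested, an alternative chosen after these values were seen, 3 of 31 members passed (9.68%), namely Mzb1, Sdf2l1 and Xbp1, against 5.82% of 11845 genes. In the main test, 15 of 33 members had an unadjusted p under 0.05 (limma), against 2693 of 12453 genes. In 23 of 33 tested members (69.7%) both Cd47ΔT libraries lay above both Cd47f/f libraries, and in 1 (3.03%) below, against 37.0% and 11.9% of all genes. No member passed in cDC2s.

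The promoters of these genes carry short sequences through which the stress response acts, and they were searched in RefSeq windows of 300 bases (GRCm38.p6, 250 before to 50 after the gene start). Of the 34 members, 30 had a window, 33 windows in all. Hyou1, Manf, Mzb1 and Sec11c had none. Both strands were searched for the ER stress response element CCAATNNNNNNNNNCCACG, its second form ATTGGNCCACG, the core TGACGTGG of the XBP1-bound element, and TGATGNAA, the composite element through which ATF4 acts. No match overlapped a match to another motif. The ER stress response element stood in 8 of 33 member windows (24.2%), against 0.119% of 32851 windows of all genes. Motifs and members were both chosen as parts of the stress response, so a higher share in members is no independent finding. The matches are shown because they fall in both groups. Of the 8 genes, 7 are general ER stress genes, as are 24 of all 34 members, and the eighth, Derl3, belongs to the plasma cell group. They are given in the motif's orientation, with the fixed letters in capitals.
Calr: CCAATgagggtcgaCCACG
Canx: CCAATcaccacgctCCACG
Creld2: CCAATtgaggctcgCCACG
Derl3: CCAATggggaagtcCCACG
Dnajc3: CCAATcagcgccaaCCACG
Hsp90b1: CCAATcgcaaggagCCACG
Hsp90b1: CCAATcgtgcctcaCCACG
Hspa5: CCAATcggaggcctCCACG
Pdia6: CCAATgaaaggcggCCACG

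The window of Hspa5 at chr2:34771840-34772139 (plus strand) is shown as that of the general chaperone gene most used to read ER stress. Its exact match to the ER stress response element is in capitals. Only exact letters were searched, so any near match stays in small letters.
Hspa5: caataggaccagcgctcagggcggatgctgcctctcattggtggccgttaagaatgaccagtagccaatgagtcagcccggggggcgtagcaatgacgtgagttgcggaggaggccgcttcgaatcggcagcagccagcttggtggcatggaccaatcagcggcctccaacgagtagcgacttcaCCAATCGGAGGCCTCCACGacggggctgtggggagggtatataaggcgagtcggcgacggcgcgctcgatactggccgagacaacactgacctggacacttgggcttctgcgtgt
The window of Derl3 at chr10:75893148-75893447 (plus strand) holds the same element on the opposite strand, in capitals, so that it reads in reverse here.
Derl3: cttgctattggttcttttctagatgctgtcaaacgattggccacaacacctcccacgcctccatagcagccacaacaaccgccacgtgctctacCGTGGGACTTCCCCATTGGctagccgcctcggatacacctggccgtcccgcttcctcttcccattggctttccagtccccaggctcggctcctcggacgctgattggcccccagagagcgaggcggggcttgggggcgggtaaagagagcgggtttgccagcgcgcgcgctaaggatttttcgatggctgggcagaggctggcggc
Txndc5 has 3 windows, and the one at chr13:38527865-38528164 (minus strand) holds the core of the XBP1-bound element, in capitals.
Txndc5: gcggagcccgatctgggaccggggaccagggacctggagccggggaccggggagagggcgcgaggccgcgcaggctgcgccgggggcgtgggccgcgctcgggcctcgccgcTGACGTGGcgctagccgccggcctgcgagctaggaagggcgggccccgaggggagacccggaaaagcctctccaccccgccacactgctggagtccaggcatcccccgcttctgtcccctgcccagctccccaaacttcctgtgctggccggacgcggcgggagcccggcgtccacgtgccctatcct
The window of Asns at chr6:7693160-7693459 (minus strand) holds the ATF4 composite element, in capitals.
Asns: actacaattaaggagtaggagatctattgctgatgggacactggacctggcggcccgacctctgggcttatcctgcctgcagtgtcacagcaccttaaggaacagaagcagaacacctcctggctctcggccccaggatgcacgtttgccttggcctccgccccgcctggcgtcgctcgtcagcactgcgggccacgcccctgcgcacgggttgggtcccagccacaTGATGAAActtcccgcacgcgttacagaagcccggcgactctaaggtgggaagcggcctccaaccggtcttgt

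The second form of the ER stress response element stood in the windows of Dnajb11 and Herpud1 (6.06% of member windows, 0.037% of all). TGACGTGG stood in those of Txndc5 and Txndc11 (6.06% of member windows, 0.676% of all), and TGATGNAA in those of Asns, Chac1, Herpud1, Trib3 and another window of Txndc5 (15.2% of member windows, 3.97% of all). The windows of Xbp1, Sdf2l1, Sec61b and Ssr4 held no exact match to any of these motifs, and near matches were not searched. A match describes the sequence only, and the motif lists were not tested against the expression values. Among the 8 genes with the ER stress response element, 1 passed the test in T cells as higher, against 8.5% of all genes. It was Derl3, which reached 1 TPM in the Cd47ΔT libraries alone.

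The plasma cell secretory genes come first. Mzb1 encodes an ER protein of B cells and plasma cells that helps assemble IgM. It stood at 32.2 and 26.8 TPM in Cd47ΔT T cells, against 3.73 and 5.79 TPM in Cd47f/f T cells. The groups were far apart, and Mzb1 rose by 2.42 ± 0.24 (log2 fold change ± SE; limma, adjusted p = 0.0054). Derl3 (chr10:75893413-75895941), a member of the Derlin family that moves misfolded proteins out of the ER, stood at 3.62 and 3.61 TPM in Cd47ΔT T cells, against 0.190 and 0.400 TPM in Cd47f/f T cells. Its log2 fold change of 1.84 ± 0.23 (limma, adjusted p = 0.0093) understates the change of so low a gene, since 1 TPM was added to each value. Derl3 reached 1 TPM in no Cd47f/f T cell library, so it entered the test through the Cd47ΔT libraries.

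Txndc5 (chr13:38500079-38528824), a disulfide isomerase of the ER, stood at 72.5 and 83.0 TPM in Cd47ΔT T cells, against 44.9 and 52.4 TPM in Cd47f/f T cells, without overlap. It rose by 0.67 ± 0.15 on the log2 scale (limma, adjusted p = 0.041). Sec11c, a catalytic subunit of signal peptidase, stood at 212 and 198 TPM in Cd47ΔT and 143 and 157 TPM in Cd47f/f T cells, and did not pass (limma, adjusted p = 0.063). Txndc11, a thioredoxin-domain protein of the ER, stood at 27.0 and 28.2 TPM in Cd47ΔT and 19.3 and 26.0 TPM in Cd47f/f T cells. It did not pass either. All 5 genes were higher in both Cd47ΔT libraries than in both Cd47f/f libraries, as were 37.0% of all genes tested. For Derl3 the limit for testing fixed that direction. Their summed level was 347 and 339 TPM in Cd47ΔT T cells, against 211 and 242 TPM in Cd47f/f T cells, and most of it was Sec11c and Txndc5.

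**Figure D1:**
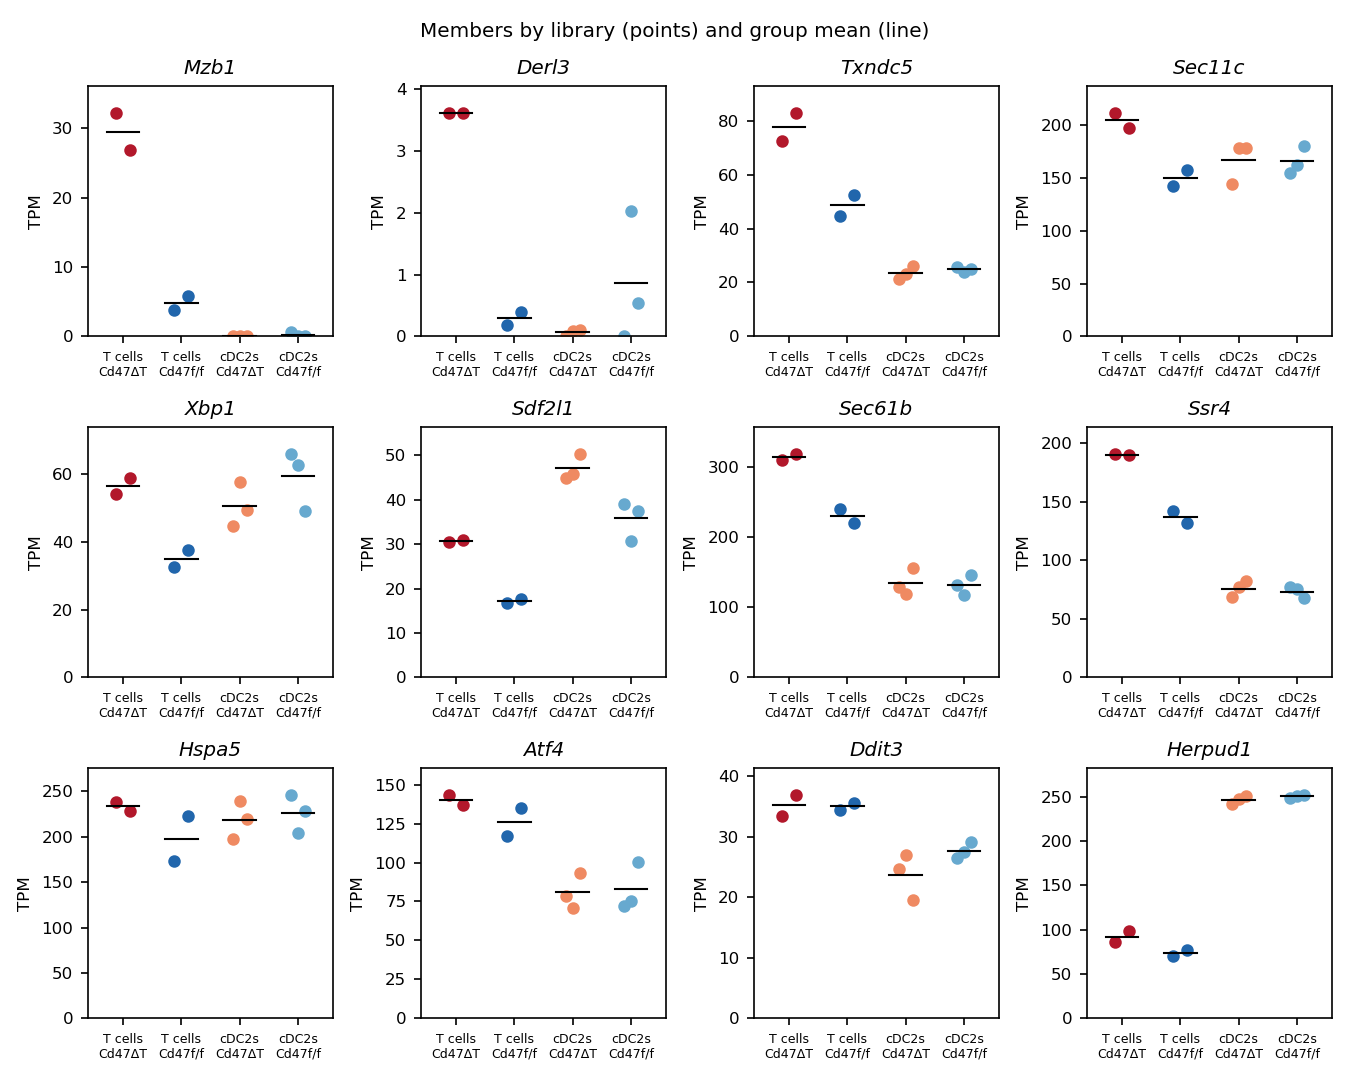
TPM of 12 members in each library (points; y axis from 0) with group means (lines), for Cd47ΔT and Cd47f/f T cells (n = 2 each) and Cd47ΔT and Cd47f/f cDC2s (n = 3 each). Mzb1 and Derl3 separate the T cell genotypes widely (29.5 against 4.76 and 3.62 against 0.295 TPM on average), while Ddit3 does not (35.1 against 35.0 TPM).

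The regulators of the stress response and their targets gave a mixed picture, with 2 of 5 tested members higher (40%), against 8.5% of all genes. Their median log2 fold change was 0.16, beside 0.10 for all genes tested. Xbp1 (chr11:5520659-5525893), the transcription factor of the IRE1 branch and of plasma cell development, stood at 54.2 and 59.0 TPM in Cd47ΔT T cells, against 32.5 and 37.7 TPM in Cd47f/f T cells. It rose by 0.68 ± 0.15 (limma, adjusted p = 0.039). The TPM sum over spliced and unspliced Xbp1 transcripts, so the splicing that activates XBP1 is not read here. Asns (chr6:7675169-7693254), the asparagine synthetase gene that ATF4 switches on, stood at 2.20 and 3.32 TPM in Cd47ΔT T cells, against 0.520 and 0.470 TPM in Cd47f/f T cells. Its log2 fold change was 1.31 ± 0.25 (limma, adjusted p = 0.028), and like Derl3 it reached 1 TPM in the Cd47ΔT libraries alone.

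Atf4, the transcription factor of the PERK branch and of amino acid stress, stood at 143 and 137 TPM in Cd47ΔT and 117 and 135 TPM in Cd47f/f T cells. The log2 fold change was 0.16 ± 0.12 (limma, adjusted p = 0.57). Ddit3, which encodes the death-promoting factor CHOP, stood at 33.4 and 36.9 TPM in Cd47ΔT and 34.4 and 35.6 TPM in Cd47f/f T cells. The groups overlapped, and the difference was 0.0051 ± 0.14 (limma, adjusted p = 0.99), with its sign turned under each scaling alternative (-0.12, -0.15 and -0.031). Trib3, a CHOP and ATF4 target, stood at 1.06 and 1.59 TPM in Cd47ΔT and 2.20 and 2.56 TPM in Cd47f/f T cells, and was the only tested member whose Cd47ΔT libraries both lay below both Cd47f/f libraries. It did not pass (limma, adjusted p = 0.26). Chac1, a glutathione-degrading target of ATF4, lay at 0.20 and 0.38 TPM in Cd47ΔT and 0.040 and 0.030 TPM in Cd47f/f T cells, below the limit for testing.

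The 9 ER chaperones had a median log2 fold change of 0.25, beside 0.10 for all genes tested. Of the 9, 1 passed as higher (11.1%), a share near the 8.5% of all genes. It was Sdf2l1 (chr16:17130138-17132383), which works beside the main ER chaperone BiP. Sdf2l1 stood at 30.4 and 30.9 TPM in Cd47ΔT T cells, against 16.7 and 17.6 TPM in Cd47f/f T cells, and rose by 0.81 ± 0.15 (limma, adjusted p = 0.026). The replicates lay close together in each group. Hspa5, the gene of BiP, stood at 239 and 229 TPM in Cd47ΔT and 173 and 223 TPM in Cd47f/f T cells. Both Cd47ΔT libraries were above the Cd47f/f libraries, but Cd47f/f library 2 (223 TPM) lay close to Cd47ΔT library 2 (229 TPM), and the difference of 0.25 ± 0.14 did not pass (limma, adjusted p = 0.41). The value hung on the Cd47f/f libraries: without library 2 it was 0.43 and passed (limma, adjusted p = 0.037), and without library 1 it was 0.069 (limma, adjusted p = 0.57).

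Hsp90b1, the gene of the ER heat shock protein GRP94, stood at 202 and 205 TPM in Cd47ΔT and 134 and 169 TPM in Cd47f/f T cells. Manf, a stress-induced secreted protein, stood at 158 and 151 TPM in Cd47ΔT and 110 and 124 TPM in Cd47f/f T cells. Creld2, another stress-induced ER protein, stood at 31.9 and 27.3 TPM in Cd47ΔT and 20.5 and 22.3 TPM in Cd47f/f T cells. These 3 genes did not overlap between genotypes and did not pass. Dnajb11, a BiP co-chaperone, did not overlap either, at 77.1 and 76.0 TPM in Cd47ΔT and 64.5 and 71.3 TPM in Cd47f/f T cells. In all, 6 of the 9 chaperones lay higher in Cd47ΔT without overlap, against 37.0% of all genes tested. The groups overlapped for Hyou1 (29.1 and 30.8 TPM in Cd47ΔT, 24.1 and 34.4 TPM in Cd47f/f), a nucleotide exchange factor of BiP. They also overlapped for the BiP co-chaperones Dnajb9 (16.9 and 20.5 TPM in Cd47ΔT, 19.0 and 20.9 TPM in Cd47f/f) and Dnajc3 (54.6 and 56.3 TPM in Cd47ΔT, 50.6 and 67.2 TPM in Cd47f/f).

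None of the 6 lectin chaperones and disulfide isomerases passed in limma's test, with a median log2 fold change of 0.23. At an unadjusted p under 0.05 there were 2, against 2693 of 12453 genes. Pdia4, an isomerase of the ER stress response, had the largest difference, 65.3 and 60.4 TPM in Cd47ΔT T cells against 42.2 and 49.4 TPM in Cd47f/f T cells, or 0.45 ± 0.14 (limma, adjusted p = 0.12). Without Cd47f/f library 2 Pdia4 passed, at 0.56 (limma, adjusted p = 0.039). Pdia6 stood at 78.4 and 74.6 TPM in Cd47ΔT and 55.7 and 58.3 TPM in Cd47f/f T cells. The isomerases Pdia3 (230 and 213 TPM in Cd47ΔT, 183 and 201 TPM in Cd47f/f) and P4hb (120 and 124 TPM in Cd47ΔT, 97.0 and 107 TPM in Cd47f/f) also kept the genotypes apart. Calr, the gene of the lectin chaperone calreticulin, stood at 318 and 304 TPM in Cd47ΔT and 255 and 302 TPM in Cd47f/f T cells. Canx, the gene of its membrane-bound relative calnexin, stood at 106 TPM in both Cd47ΔT libraries and at 83.4 and 114 TPM in Cd47f/f T cells, with overlap. Of the 6, 5 lay higher in Cd47ΔT without overlap, against 37.0% of all genes tested.

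None of the 3 genes of ER-associated degradation passed, with a median of 0.17. Of the 3, 1 had an unadjusted p under 0.05, against 2693 of 12453 genes. Herpud1, which brings degradation factors together and is induced by ER stress, stood at 86.6 and 98.0 TPM in Cd47ΔT and 70.0 and 76.8 TPM in Cd47f/f T cells, a difference of 0.33 ± 0.13 (limma, adjusted p = 0.22). Edem1, which recognises misfolded glycoproteins, stood at 57.8 and 62.3 TPM in Cd47ΔT and 45.9 and 64.4 TPM in Cd47f/f T cells. Sel1l, the partner of the ubiquitin ligase HRD1, stood at 19.7 and 22.0 TPM in Cd47ΔT and 14.1 and 24.0 TPM in Cd47f/f T cells. The genotypes overlapped for Edem1 and Sel1l.

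Among the genes of entry into the ER, 2 of 5 passed (40%), against 8.5% of all genes. The median was 0.27, beside 0.10 for all genes tested. Sec61b (chr4:47474658-47483242), a small subunit of the Sec61 channel, stood at 310 and 319 TPM in Cd47ΔT T cells, against 240 and 220 TPM in Cd47f/f T cells. It rose by 0.45 ± 0.10 (limma, adjusted p = 0.048). Ssr4 (chrX:73787028-73790830), a subunit of the translocon-associated protein complex, stood at 191 and 189 TPM in Cd47ΔT T cells, against 142 and 132 TPM in Cd47f/f T cells, and rose by 0.47 ± 0.11 (limma, adjusted p = 0.046). Its partner subunit Ssr1 stood at 17.9 and 19.4 TPM in Cd47ΔT and 14.6 and 18.4 TPM in Cd47f/f T cells, with overlap. The signal peptidase subunits Spcs1 (193 and 168 TPM in Cd47ΔT, 172 and 163 TPM in Cd47f/f) and Spcs2 (86.6 and 82.0 TPM in Cd47ΔT, 68.9 and 70.1 TPM in Cd47f/f) did not pass, and only Spcs2 kept the genotypes apart.

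Set side by side, 3 of 5 plasma cell secretory genes passed in T cells (60%) with a median log2 fold change of 0.67. Among the general ER stress genes, 3 of 23 tested passed (13%) with a median of 0.21, a share near the 8.5% of all genes. Among all 33 tested members the median was 0.27. All genes tested had a median of 0.10, and 65.4% of them leaned higher in Cd47ΔT T cells too. With the genes tested only where both genotypes reached 1 TPM, which leaves out Derl3 and Asns, 1 of 4 plasma cell secretory genes (25%) and 2 of 22 general genes (9.09%) passed, against 5.82% of all genes. The difference between the plasma cell and the general group was not tested. Mzb1 and Derl3 kept their call in every alternative in which they were tested but the one with no filter on low values (limma, adjusted p = 0.069 each), where 0 members passed. The other 6 lost it in more. Sdf2l1 lost it in 3 of 16 alternatives, the other 2 being those without either Cd47ΔT library (0.248 and 0.265; limma, adjusted p). Asns lost it in 5 of 14, among them those without either Cd47f/f library (0.087 and 0.067) and quantile scaling (0.077). Xbp1 lost it in 5 of 16 and Txndc5 in 7 of 16, both without either Cd47ΔT library, without Cd47f/f library 1 (0.062 to 0.39) and without a variance trend (0.071 for Xbp1 and 0.084 for Txndc5). The calls of Sec61b and Ssr4 were the least firm, lost in 11 and 9 of 16. They were lost without either Cd47ΔT library (0.37 to 0.45), under quantile (0.127 for Sec61b and 0.114 for Ssr4), median-of-ratios (0.300 and 0.248) and protein-coding scaling (0.066 and 0.061), with a pseudocount of 0.1 (0.055 and 0.054) and without a trend (0.169 and 0.144). The count of members called higher was 3 without either Cd47ΔT library, 5 without Cd47f/f library 1 and 13 without Cd47f/f library 2.

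**Figure D2:**
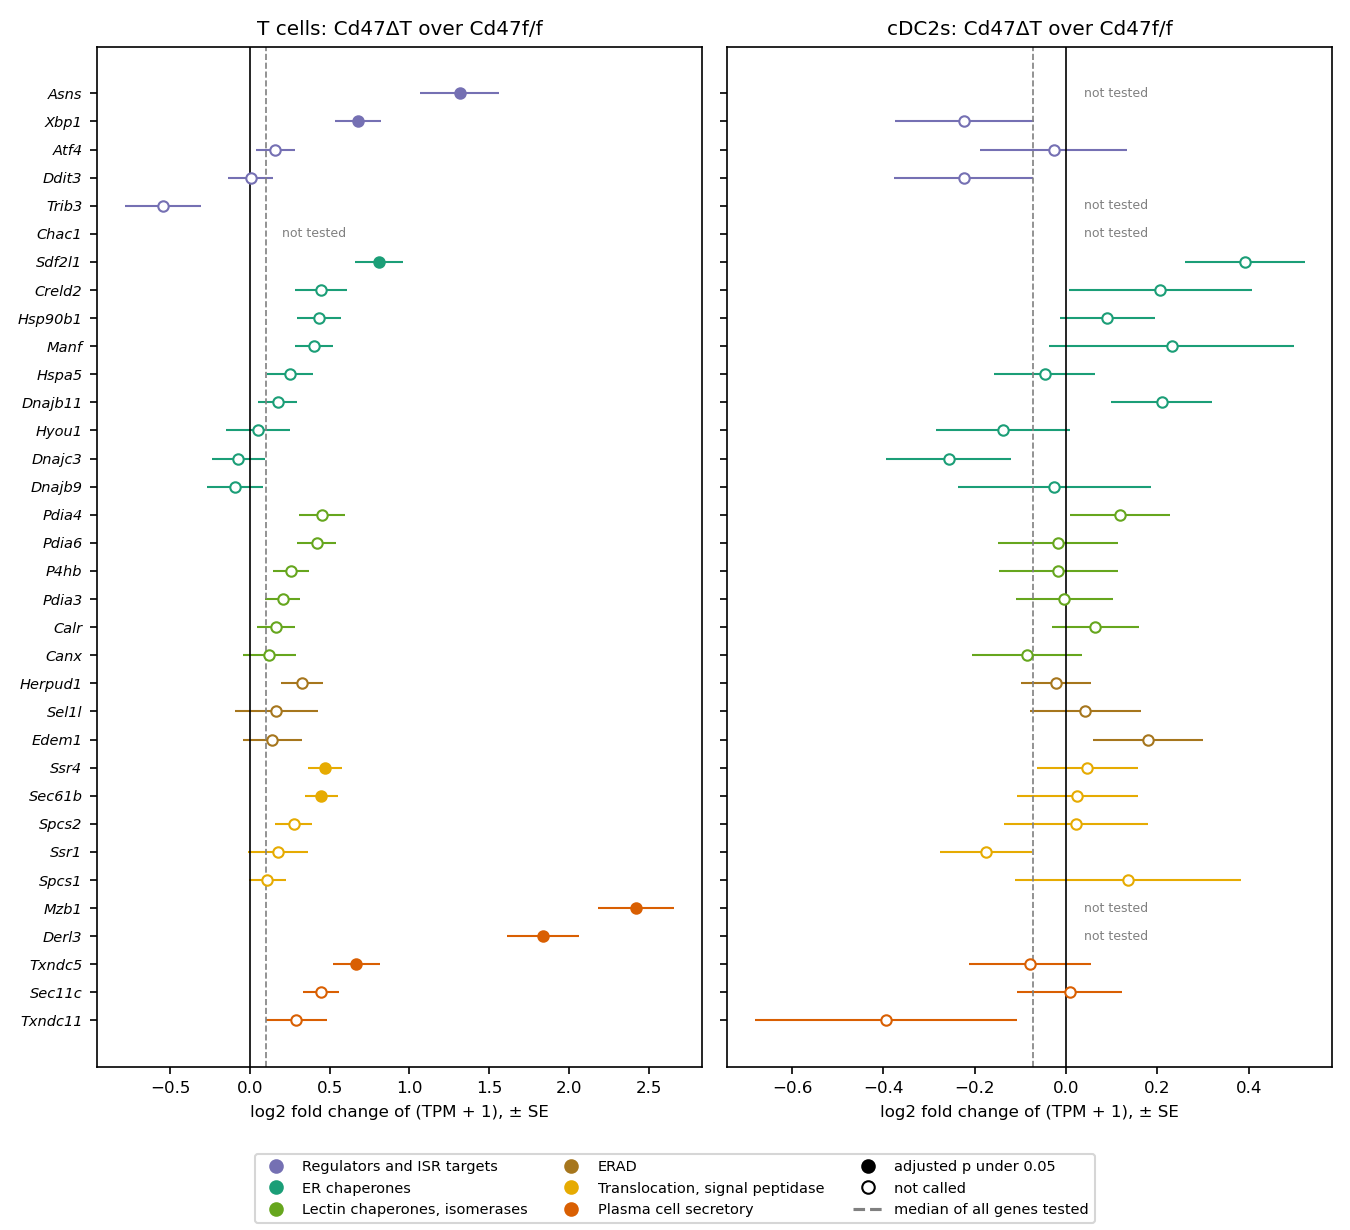
Log2 fold changes of TPM + 1 (points, with SE; x axis) for each member (rows, coloured by role) in T cells (left) and cDC2s (right), Cd47ΔT over Cd47f/f. Filled points passed an adjusted p of 0.05, 8 in T cells and 0 in cDC2s, and the dashed lines mark the median of all genes tested, 0.10 and -0.073.

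Transcripts of plasma cells moved with these genes in the T cell libraries. The 14 plasma cell markers summed to 7808 and 8509 TPM in Cd47ΔT T cells, against 1578 and 1703 TPM in Cd47f/f T cells. All 14 lay higher in both Cd47ΔT libraries, against 37.0% of all genes tested. Of the 14, 12 passed (85.7%), against 8.5% of all genes, with a median log2 fold change of 2.16. Jchain, which joins antibody units, stood at 309 and 345 TPM in Cd47ΔT and 57.0 and 64.3 TPM in Cd47f/f T cells, a 5.39-fold difference of means beside the 6.20-fold of Mzb1. Igkc, the kappa light chain constant gene, stood at 4271 and 4690 TPM in Cd47ΔT and 587 and 638 TPM in Cd47f/f T cells. Sdc1, the gene of the plasma cell surface marker CD138, stood at 3.20 and 4.41 TPM in Cd47ΔT and 0.540 and 1.15 TPM in Cd47f/f T cells. The 429 immunoglobulin genes together took 14095 and 15604 TPM in Cd47ΔT T cells, against 2539 and 2890 TPM in Cd47f/f T cells. None of the 14 markers was at 0 in every T cell library.

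Markers of other cell types also moved. The 10 B cell markers summed to 61.5 and 146 TPM in Cd47ΔT T cells, against 17.03 and 19.33 TPM in Cd47f/f T cells, and 6 of 8 tested passed as higher. Markers of plasmacytoid dendritic cells, which also hold much secretory machinery, were 8 genes that summed to 221 and 255 TPM in Cd47ΔT and 184 and 185 TPM in Cd47f/f T cells, with 3 of 8 higher. Most of the sum was Bst2 (148 and 151 TPM in Cd47ΔT, 110 and 97.8 TPM in Cd47f/f). Ccr9 (26.6 and 30.1 TPM in Cd47ΔT, 36.2 and 41.5 TPM in Cd47f/f) went the other way without overlap. So did Pacsin1 (29.4 and 31.3 TPM in Cd47ΔT, 33.5 and 40.2 TPM in Cd47f/f), while the other 6 lay higher. Proliferation markers passed as higher in 9 of 10 and summed to 764 and 712 TPM in Cd47ΔT and 273 and 350 TPM in Cd47f/f T cells. Macrophage (9 of 9 tested), cDC2 (6 of 7) and neutrophil (5 of 7) markers also passed as higher. So did NK cell (5 of 7) and erythroid (3 of 4) markers. Macrophage markers summed to 155 and 242 TPM in Cd47ΔT and 20.3 and 25.1 TPM in Cd47f/f T cells. The cDC2 markers summed to 41.5 and 72.1 against 7.14 and 10.1 TPM, and neutrophil markers to 42.1 and 117 against 5.19 and 11.2 TPM. NK cell markers summed to 977 and 1057 against 415 and 499 TPM, and erythroid markers to 77.4 and 158 against 33.0 and 21.45 TPM. Of the T cell markers, 0 of 10 passed. Of those 10, 2 had an unadjusted p under 0.05, against 2693 of 12453 genes. What these cells contributed to the values of Mzb1, Derl3, Xbp1 and the other members was not tested. In bulk libraries, fewer cells of a type and less RNA per cell cannot be told apart.

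**Figure D3:**
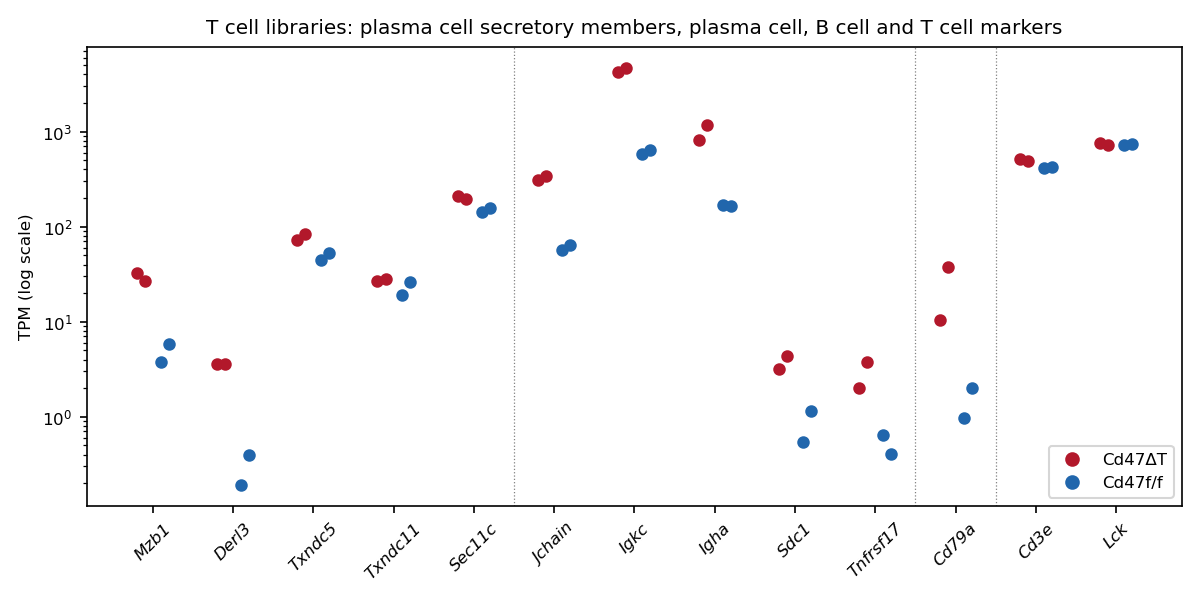
TPM (log scale) of the 5 plasma cell secretory members, 5 plasma cell markers, the B cell marker Cd79a and the T cell markers Cd3e and Lck in each T cell library (points; Cd47ΔT left of Cd47f/f, n = 2 each). Mzb1 and Derl3 separate the genotypes (6.20-fold and 12.3-fold by group means), as do Jchain (5.39-fold), Igkc (7.32-fold) and the B cell marker Cd79a (16.1-fold). Sec11c and Txndc11 differ by far less (1.36-fold and 1.22-fold). Derl3 averaged 0.295 TPM in Cd47f/f T cells and reached 1 TPM in the Cd47ΔT libraries alone.

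In cDC2s 29 members could be tested and none passed in either direction, against 0.249% of 12058 genes called higher and 0.381% called lower. The median log2 fold change of the members was -0.0041, beside -0.073 for all genes tested. A count of 0 among 29 is near that background. In all, 1 of 29 members had an unadjusted p under 0.05, against 1618 of 12058 genes. It was the chaperone Sdf2l1, which is named after its values were seen. Sdf2l1 stood at 44.99, 45.87 and 50.34 TPM in Cd47ΔT cDC2s, against 39.1, 30.7 and 37.5 TPM in Cd47f/f cDC2s, without overlap, a difference of 0.39 ± 0.13 (limma, adjusted p = 0.25). It was the only member among the 8 called in T cells whose cDC2 libraries also lay apart.

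Xbp1 in cDC2s stood at 44.7, 57.8 and 49.4 TPM in Cd47ΔT and 66.02, 62.79 and 49.2 TPM in Cd47f/f libraries. The difference leaned the other way from T cells, -0.22 ± 0.15 (limma, adjusted p = 0.59), and the groups overlapped. Hspa5 stood at 198, 239 and 219 TPM in Cd47ΔT and 246, 204 and 228 TPM in Cd47f/f cDC2s (-0.047 ± 0.11; limma, adjusted p = 0.89). Atf4 stood at 78.2, 70.7 and 93.5 TPM in Cd47ΔT and 72.1, 75.5 and 101 TPM in Cd47f/f cDC2s (-0.027 ± 0.16; limma, adjusted p = 0.97). The signs of both turn with the scaling or with the libraries left out. Ddit3 stood at 24.6, 27.0 and 19.6 TPM in Cd47ΔT and 26.4, 27.4 and 29.2 TPM in Cd47f/f cDC2s (-0.22 ± 0.15; limma, adjusted p = 0.58).

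The plasma cell secretory genes split in cDC2s. Mzb1 was listed at 0 in all 3 Cd47ΔT libraries and, in Cd47f/f, at 0.570, 0 and 0 TPM. Derl3 lay at 0, 0.0900 and 0.110 TPM in Cd47ΔT and at 0, 2.03 and 0.540 TPM in Cd47f/f cDC2s. Both were too low to test. Txndc5 stood at 21.4, 23.0 and 26.1 TPM in Cd47ΔT and 25.6, 23.8 and 25.1 TPM in Cd47f/f cDC2s. Sec11c, by contrast, stood near its level in Cd47f/f T cells, at 145, 178 and 179 TPM in Cd47ΔT and 155, 163 and 180 TPM in Cd47f/f cDC2s. Txndc11 had the largest difference of this group, -0.39 ± 0.29 (limma, adjusted p = 0.61), at 13.8, 30.9 and 21.3 TPM in Cd47ΔT and 24.0, 25.1 and 35.8 TPM in Cd47f/f cDC2s. The plasma cell markers summed to 286 to 319 TPM in Cd47ΔT and 363 to 399 TPM in Cd47f/f cDC2s, with 2 of the 14, Tnfrsf17 among them, listed at 0 in all 6 libraries. Most of each sum was Ighm (166 to 177 TPM), Tnfrsf13b (46.7 to 103 TPM) and Irf4 (35.8 to 61.1 TPM). Tnfrsf13b and Irf4 were higher in every cDC2 library than in any T cell library. Igkc lay at 1.75 to 53.9 TPM, Jchain at 0.330 to 7.94 TPM and Sdc1 at or below 0.270 TPM.

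Among the other roles in cDC2s, the largest differences were 0.12 ± 0.11 for Pdia4, 0.18 ± 0.12 for Edem1 and -0.18 ± 0.10 for Ssr1 (limma, adjusted p = 0.70, 0.58 and 0.51). Pdia4 stood at 57.5, 69.4 and 60.6 TPM in Cd47ΔT and 57.0, 57.1 and 57.9 TPM in Cd47f/f, with overlap by 1 library. Ssr1 lay apart, at 41.7, 42.9 and 41.3 TPM in Cd47ΔT and 46.5, 47.7 and 48.3 TPM in Cd47f/f. Dnajc3 lay apart in the same direction, at 23.1, 25.5 and 23.5 TPM in Cd47ΔT and 25.8, 28.6 and 32.7 TPM in Cd47f/f, and Dnajb11 in the other, at 51.1, 54.9 and 46.7 TPM in Cd47ΔT and 42.0, 45.2 and 44.2 TPM in Cd47f/f. With Sdf2l1, 2 of 29 tested members (6.9%) lay higher and 2 lower without overlap, against 6.38% and 13.5% of all genes, so the share of higher ones is near the background. Trib3 and Asns were too low to test, with Trib3 at most at 0.850 TPM in Cd47ΔT and 4.72 TPM in Cd47f/f library 3, and Chac1 stayed at or below 0.570 TPM.

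The difference between the genotype effects, T cells minus cDC2s, was tested for 29 members in 1 fit. Of these, 1 passed, Xbp1, against 5.7% of 10650 genes. Its effects differed by 0.90 ± 0.24 on the log2 scale (limma interaction, adjusted p = 0.048). The call was lost in 16 of 20 alternatives (limma, adjusted p = 0.022 to 0.22), among them leaving out any T cell library or any of Cd47ΔT libraries 1 and 3 and Cd47f/f libraries 1 and 2 of the cDC2s. The 3 tested plasma cell secretory genes had differences of 0.44 to 0.75, none of which passed, and the median over the 29 members was 0.25, beside 0.19 for all genes tested. Mzb1 and Derl3, the most changed tested members in T cells, were too low in cDC2s to enter.

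The wider pathway gave few calls. Of 102 other genes of the pathway in 6 lists (stress sensors, stress targets, folding and oxidation, degradation, translocation and vesicle traffic), 97 could be tested in T cells, and 2 passed as higher (2.06%) and 0 as lower, with a median of 0.13. Over all genes tested in T cells 8.5% passed as higher and 0.875% as lower. Both are stress targets, where 2 of 15 passed. Nupr1, a small stress-induced chromatin protein, stood at 2.32 and 3.07 TPM in Cd47ΔT and 0.310 and 0.840 TPM in Cd47f/f T cells (1.24 ± 0.27; limma, adjusted p = 0.041), and reached 1 TPM in the Cd47ΔT libraries alone. Psat1, an enzyme of serine synthesis, stood at 47.4 and 40.8 TPM in Cd47ΔT and 23.0 and 28.5 TPM in Cd47f/f T cells (0.76 ± 0.17; limma, adjusted p = 0.046). Both calls were lost without Cd47ΔT library 2 (0.061 and 0.15) or Cd47f/f library 1 (0.11 and 0.077), and that of Psat1 also without Cd47ΔT library 1 (0.41). In all, Nupr1 lost its call in 6 of 14 alternatives, among them a pseudocount of 0.1 (0.069), quantile scaling (0.099) and 1 fit of all libraries (0.15). Psat1 lost it in 10 of 16, among them a pseudocount of 0.1 (0.052), the filter of 5 TPM (0.051), protein-coding scaling (0.054), no variance trend (0.072) and 1 fit of all libraries (0.058). With only genes at 1 TPM in both genotypes tested, 0 of 95 passed in limma's test, Nupr1 then being left out and Psat1 at an adjusted p of 0.056. None of 12 sensors, 14 folding, 14 degradation, 23 translocation and 19 traffic genes passed in limma's test in T cells. There 11 of the 97 had an unadjusted p under 0.05, against 2693 of 12453 genes. In cDC2s 0 of 98 passed, with 10 at an unadjusted p under 0.05, against 1618 of 12058 genes.

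Stress sensors supplied both calls of the wider pathway in the difference between cell types, 2 of 96 tested (2.08%), against 5.7% of 10650 genes. Atf6, the sensor that is cut to release a transcription factor, stood at 5.87 and 7.28 TPM in Cd47ΔT T cells against 2.67 and 4.73 TPM in Cd47f/f T cells, and at 33.6, 39.7 and 35.5 TPM in Cd47ΔT cDC2s against 50.75, 50.04 and 50.21 TPM in Cd47f/f cDC2s. Its effects differed by 1.18 ± 0.29 (limma interaction, adjusted p = 0.033). Eif2ak2, the interferon-induced kinase PKR, stood at 20.2 and 21.9 TPM in Cd47ΔT T cells against 8.97 and 14.5 TPM in Cd47f/f T cells, and at 16.8, 27.7 and 19.5 TPM in Cd47ΔT cDC2s against 29.3, 31.5 and 27.7 TPM in Cd47f/f cDC2s. The difference was 1.30 ± 0.33 (limma interaction, adjusted p = 0.042). Neither gene passed within T cells or within cDC2s. Of 20 alternatives, the call of Atf6 was lost in 11 and that of Eif2ak2 in 13. Both were lost without either Cd47ΔT T cell library, without Cd47f/f T cell library 1 (0.11 for Atf6 and 0.19 for Eif2ak2), or without any cDC2 library but Cd47ΔT library 2 (0.060 to 0.086).

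Levels also set the cell types apart, in a comparison that cannot be told apart from the library kit, since T cell and cDC2 libraries were made with different kits. All 4 T cell libraries lay above all 6 cDC2 libraries for 13 of 33 members (39.4%) and below for 5 (15.2%), against 35.2% and 23.7% of 13861 genes. The higher share is near the background. In Cd47f/f mice, Spcs1 averaged 167 ± 6.003 TPM in T cells and 38.5 ± 7.95 TPM in cDC2s, and Spcs2 69.5 ± 0.877 TPM in T cells and 16.8 ± 2.33 TPM in cDC2s (SD, n = 2 and 3). The 5 lower in T cells were Sel1l, Herpud1, Ssr1, Canx and Calr. Sel1l averaged 19.1 ± 7.01 TPM in Cd47f/f T cells and 144 ± 14.6 TPM in Cd47f/f cDC2s, a 7.53-fold difference, and Herpud1 73.4 ± 4.86 TPM in T cells and 250.4 ± 1.94 TPM in cDC2s. Hspa5 was at a like level in both, 198 ± 35.1 TPM in T cells and 226 ± 21.2 TPM in cDC2s. The most abundant members, from the top, were Calr, Sec61b and Hspa5 in Cd47f/f T cells and Calr, Canx and Herpud1 in Cd47f/f cDC2s. Sec61b and Hspa5 overlapped in the T cell libraries, and the other neighbours in these orders did not.

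**Figure D4:**
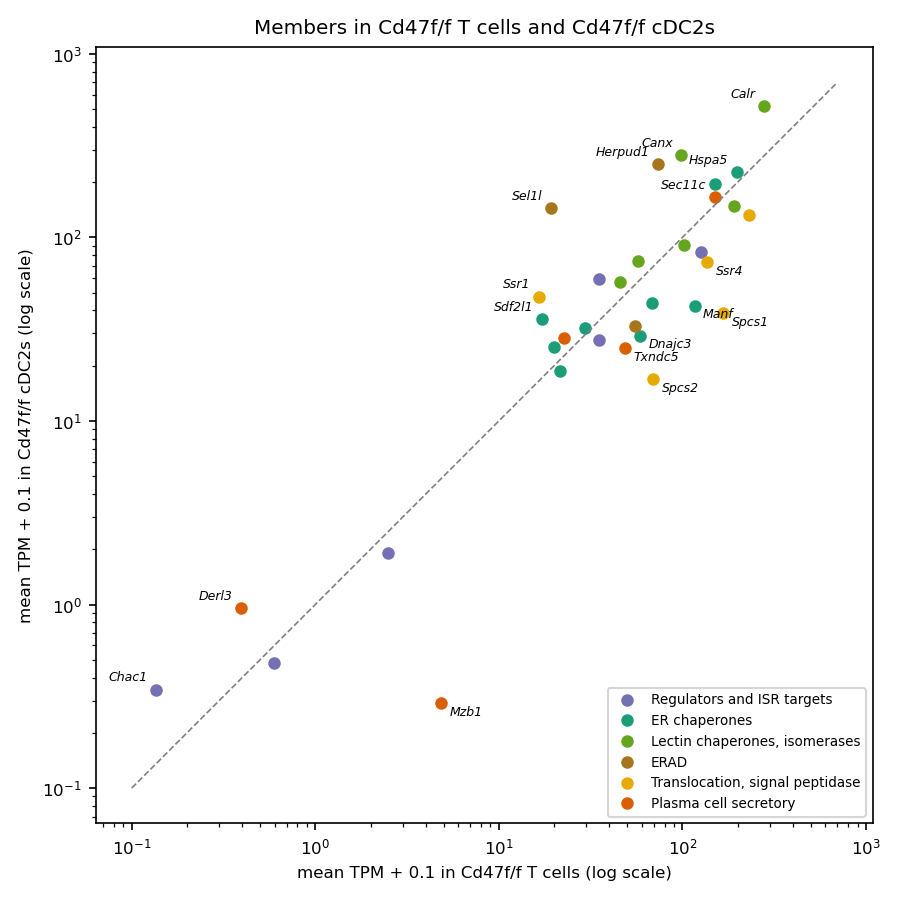
Mean TPM + 0.1 of each member in Cd47f/f T cells (x axis, n = 2) and Cd47f/f cDC2s (y axis, n = 3), both on log scales, coloured by role; the dashed line marks equal levels. Sel1l, Herpud1, Canx and Ssr1 lie above the line and Spcs1, Spcs2, Manf and Mzb1 below it, and the kits differ between the axes.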

How the data were processed

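Per the labels' protocols, T cells were taken through RNeasy mini extraction and TruSeq stranded mRNA preparation, whereas cDC2s were taken through RNeasy micro extraction and SMART-seq stranded preparation. The deposited table holds TPM made by the authors. STAR, RSEM, DESeq2 and the GRCm38 build are named in the submitters' processing notes, without versions or a strand setting, so overlapping genes are uncertain. Of 45706 gene IDs, 45143 matched GENCODE M21, which gave symbols and positions. Libraries sum to 999999 to 1000000 TPM, 11514 to 12594 genes reached 1 TPM per library, and depth is unknown.

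Genes at 1 TPM or more in 2 T cell or 3 cDC2 libraries were tested on log2(TPM + 1) with limma 3.58.1 (variance trend) in R 4.3.3, genotype being the only term, and p-values were adjusted over all genes tested by Benjamini-Hochberg. For the difference of effects, an interaction term was fitted to all 10 libraries together, with the genes that passed both filters. Residual degrees of freedom were 2, 4 and 6, and fewer with the replicate number as a block or with a library left out. A fold change on this scale understates that of low genes. The fits within T cells and within cDC2s were first tested on simulated data, and the other steps were not.

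The members, roles, other pathway lists and 10 marker lists were chosen with earlier results of these data known. All members are named with their TPM. Fold changes are given for called members, for Hspa5, Xbp1, Atf4, Ddit3, Mzb1 and Derl3, and for the largest change of a role with none of these. Sec11c and Trib3 in T cells and Sdf2l1, Dnajc3 and Dnajb11 in cDC2s are given further values chosen after these were seen. Selenos and its older name are 1 gene, which leaves 102 of 103 listed pathway symbols. Alternatives were pseudocounts of 0.1 and 5, no filter, a filter of 5 TPM, quantile, median-of-ratios and protein-coding scaling, no or a robust trend, the replicate number as a block, 1 fit of all libraries and leaving out each library. In T cells 1 alternative was added after seeing the data, testing only genes at 1 TPM in at least 1 library of each genotype. Where this left 1 library in a group, its spread was taken from the other group. Python 3.11.15 with pandas 2.3.3, numpy 2.4.6 and, for figures, matplotlib 3.10.9 was used.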

Additional observations from a re-analysis of the deposited data

Results flagged for a closer look

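The genotype effect on Xbp1 differed between the cell types by the test of that difference, 0.90 ± 0.24 on the log2 scale (T cells minus cDC2s; limma interaction, adjusted p = 0.048). Xbp1 averaged 56.6 ± 3.43 TPM in Cd47ΔT and 35.1 ± 3.73 TPM in Cd47f/f T cells (SD, n = 2 each), and 50.6 ± 6.62 TPM in Cd47ΔT and 59.3 ± 8.92 TPM in Cd47f/f cDC2s (SD, n = 3 each). Over its 20 alternatives the adjusted p was 0.022 to 0.22 and the value 0.67 to 1.03. In T cells the plasma cell marker Jchain lay at 309 and 345 TPM in Cd47ΔT and 57.0 and 64.3 TPM in Cd47f/f libraries, and in cDC2s at 0.330 to 2.06 TPM in Cd47ΔT and 4.64 to 7.94 TPM in Cd47f/f libraries. The part of plasma cell transcripts in the Xbp1 difference was not tested.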

How the results depend on the processing

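In T cells, the 8 members called higher became 0 with no filter on low values, 5 with a filter of 5 TPM, quantile or protein-coding scaling, 4 without a variance trend, and 3 with only genes tested that reached 1 TPM in at least 1 library of each genotype, an alternative chosen after seeing the data. Leaving out a library gave 3 to 13. Quantile scaling called 1 member lower. All genes called higher (1058) became 14 with no filter, 689 with 1 TPM in both genotypes, 679 with the 5 TPM filter, 672 with quantile scaling and 585 to 1439 without a library. Those called lower (109) became 1, 72, 327 and 51 to 140 under no filter, 1 TPM in both genotypes, quantile scaling and leaving out a library. Quantile and median-of-ratios scaling moved the median of all genes by -0.18 and -0.14, with 672 higher and 327 lower, and 946 higher and 264 lower. The member median stayed at 0.12 to 0.39. Ddit3 turned to -0.12 with quantile, -0.15 with median-of-ratios and -0.031 with protein-coding scaling, and ran from -0.064 to 0.075 without a library.

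In cDC2s 0 members were called in any of 17 alternatives. All genes called higher (30) and lower (46) became 2 and 4 with no filter, 7 and 5 without a trend, 68 and 103 in 1 fit of all libraries, and 0 to 9 and 0 to 5 without a library. They split 37 to 37, 40 to 35 and 35 to 31 with quantile, median-of-ratios and protein-coding scaling. The member median moved to 0.069, 0.076 and 0.063 with these. Atf4 turned to 0.037, 0.053 and 0.040 with them and ran from -0.14 to 0.12 without a library. Hspa5 turned to 0.033 with median-of-ratios and 0.020 with protein-coding scaling and ran from -0.12 to 0.024 without a library.

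In the difference of effects the 1 called member became 0 with a pseudocount of 5, the 5 TPM filter, quantile, median-of-ratios or protein-coding scaling, or no trend, 2 with no filter (not Xbp1, adjusted p = 0.069), and 0 to 1 without a library. The member median moved to 0.029 with median-of-ratios scaling. All genes higher (575) and lower (32) became 375 and 20 with the 5 TPM filter, 332 and 84 with quantile scaling, and 291 to 590 and 11 to 39 without a library, and 77 were lower with median-of-ratios scaling. The causes of these moves were not tested, other than that fewer genes or libraries entered where the filter or a library was changed.

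Whether the replicate numbers pair the libraries was left undecided. In T cells, 2 libraries per genotype force correlations of deviations of equal size and opposite sign (0.19 for same numbers, -0.19 for different numbers). In cDC2s they were -0.044, 0.059 and 0.12 for same numbers and -0.14 to 0.12 for different numbers. With the replicate number as a block, T cells gave 1986 genes higher, 310 lower and 12 members higher (Pdia4 among them, adjusted p = 0.039), cDC2s gave 3 higher and 1 lower, and the difference of effects gave 0 members. With 2 libraries per genotype in T cells and unknown depth, differences as small as those of Sec61b and Ssr4 (0.45 and 0.47) lie at the edge of what passes.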
